A study of Homo sapiens with 7 samples.

Results

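Regions of open chromatin at the ends of protein-coding genes were followed through a stepwise differentiation of human embryonic stem cells towards the endoderm of the pharynx, and those that opened or closed on the way are described. ATAC-seq, in which the Tn5 transposase inserts sequencing adapters into accessible DNA, was used to find open chromatin. The cells were H1, an established human embryonic stem cell line, and the deposited data are lists of peaks, 1 list for each of 7 libraries. Undifferentiated cells (hESC), cells at the definitive endoderm stage (hDE) and cells at the anterior foregut endoderm stage (hAFE) have 2 libraries each, and the last stage, the pharyngeal foregut endoderm (hPFE), has 1. All groups derive from that single line, no other genotype or agent is named in the labels, and the labels do not say whether the libraries of a stage came from separate cultures. Per the labels, the data of the hESC and hDE stages were re-analysed, which is not said of the later stages. Stage and a possible difference in data source cannot be told apart when hESC or hDE is compared with hAFE or hPFE.

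The regions were selected on the peak values themselves. Peaks are numbered by strength in each list, and a peak with a number of at most 80000 was called strong. On chromosomes 1 to 22 and X, strong peaks that overlapped between any of the 7 libraries were merged into 167407 regions on hg38, and 17707 of these lay within 1 kb of an end of a RefSeq protein-coding gene. A stage was called open at a region when every library of the stage had a strong peak there, closed when no library had any peak there, and between otherwise. A region was kept when at least 1 stage was open and at least 1 other was closed. That left 1696 regions, 9.58% of the gene-end regions, while 64632 of all merged regions, or 38.6%, met the same condition. Another 10511 gene-end regions were open at every stage. Since peak values chose the regions, their levels and counts are given below as a description, without tests.

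The start of a gene carries its promoter, where transcription begins, and its far end is where the transcript is completed. Promoters of broadly used genes often lie in CpG islands, stretches rich in the dinucleotide CpG that tend to stay accessible in all cells, while promoters of tissue-restricted genes more often lack such islands. Definitive endoderm gives rise to the lining of the gut and its organs, its anterior part forms the foregut, and the pharyngeal pouches that bud from it supply the thymus and the parathyroid glands.

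The sequence beside the start shows a feature in which the selected start regions differ from those open at every stage, a lower CpG content. The 250 bases before the start are given 5′ to 3′ on the strand of the gene, from RefSeq on GRCh38.p14, with every CpG dinucleotide in capitals. The first 6 belong to regulators whose start regions opened or closed, and GAPDH, a glycolytic enzyme gene whose start was open at every stage, is shown for contrast. NANOG lies at chr12:7789152-7789401 on the plus strand, DPPA2 at chr3:109316518-109316767 on the minus strand, ZFP42 at chr4:187995521-187995770 on the plus strand, OTX2 at chr14:56810480-56810729 on the minus strand, SHH at chr7:155812464-155812713 on the minus strand, NKX2-1 at chr14:36519557-36519806 on the minus strand and GAPDH at chr12:6535014-6535263 on the plus strand.
NANOG: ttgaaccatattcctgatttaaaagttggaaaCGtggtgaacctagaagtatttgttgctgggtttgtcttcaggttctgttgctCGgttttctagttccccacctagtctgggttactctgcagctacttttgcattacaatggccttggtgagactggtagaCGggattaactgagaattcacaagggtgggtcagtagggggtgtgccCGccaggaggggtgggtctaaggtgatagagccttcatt
DPPA2: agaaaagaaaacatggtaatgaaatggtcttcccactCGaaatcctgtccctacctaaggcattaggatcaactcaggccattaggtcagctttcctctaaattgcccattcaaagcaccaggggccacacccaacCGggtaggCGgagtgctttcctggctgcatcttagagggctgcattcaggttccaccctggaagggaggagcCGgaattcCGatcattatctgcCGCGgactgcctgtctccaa
ZFP42: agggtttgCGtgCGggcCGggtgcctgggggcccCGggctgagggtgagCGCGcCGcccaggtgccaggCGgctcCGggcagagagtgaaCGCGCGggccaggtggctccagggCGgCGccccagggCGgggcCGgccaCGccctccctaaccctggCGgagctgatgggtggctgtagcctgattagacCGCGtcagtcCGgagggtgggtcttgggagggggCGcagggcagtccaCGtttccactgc
OTX2: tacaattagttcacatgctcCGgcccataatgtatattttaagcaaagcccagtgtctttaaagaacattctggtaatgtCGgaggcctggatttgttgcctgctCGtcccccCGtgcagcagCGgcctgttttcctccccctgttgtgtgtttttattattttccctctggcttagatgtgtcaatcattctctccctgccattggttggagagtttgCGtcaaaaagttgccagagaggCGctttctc
SHH: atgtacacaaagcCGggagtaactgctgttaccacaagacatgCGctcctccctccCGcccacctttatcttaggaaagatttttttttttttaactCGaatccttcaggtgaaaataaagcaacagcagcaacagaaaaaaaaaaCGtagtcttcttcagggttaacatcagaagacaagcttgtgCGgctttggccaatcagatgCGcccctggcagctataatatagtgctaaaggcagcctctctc
NKX2-1: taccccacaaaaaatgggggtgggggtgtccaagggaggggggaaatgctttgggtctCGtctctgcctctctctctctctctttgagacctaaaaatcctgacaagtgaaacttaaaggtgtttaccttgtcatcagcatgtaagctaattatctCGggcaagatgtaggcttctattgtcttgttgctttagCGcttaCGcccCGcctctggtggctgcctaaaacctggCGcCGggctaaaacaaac
GAPDH: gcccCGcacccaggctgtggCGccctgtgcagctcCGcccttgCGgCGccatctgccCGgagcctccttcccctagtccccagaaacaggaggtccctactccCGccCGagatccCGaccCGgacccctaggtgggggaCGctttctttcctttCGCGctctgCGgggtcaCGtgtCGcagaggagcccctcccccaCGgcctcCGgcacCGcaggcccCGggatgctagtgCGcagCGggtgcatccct
These 250 bases held 4 CpG at NANOG, 7 at each of DPPA2, OTX2, SHH and NKX2-1, 23 at ZFP42 and 22 at GAPDH. In the 300-base start windows used below, the ratio of observed to expected CpG was 0.323 at NANOG and 0.356 at DPPA2, which count as CpG-poor. It was 0.493 at OTX2, 0.512 at SHH, 0.542 at NKX2-1 and 0.697 at ZFP42, which fall between poor and rich. For GAPDH the ratio in that window is not given here. Over the printed 250 bases the ratio was 0.718 at GAPDH and 0.688 at ZFP42. Both values are under the ratio required below of a CpG-rich window. GAPDH thus contrasts with the other printed starts in CpG content, but hardly with ZFP42.

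A second feature, a match to the AP-1 motif, was found mostly at starts that opened, nearly all of them open in the single hPFE library. AP-1 is a dimer of FOS and JUN family proteins and binds the letters TGANTCA. The matches are in capitals in the 250 bases before the starts of CPA4, a carboxypeptidase gene (chr7:130292911-130293160, plus strand), SCEL, the gene of sciellin, a precursor of the cornified envelope of squamous cells (chr13:77535456-77535705, plus strand), and SPRR3 and SPRR1B, small proline-rich proteins of the same envelope (chr1:153001499-153001748 and chr1:153030953-153031202, plus strand). CPA4 and SCEL fell under the rule for named genes, and the 2 SPRR genes were chosen after their values were seen.
CPA4: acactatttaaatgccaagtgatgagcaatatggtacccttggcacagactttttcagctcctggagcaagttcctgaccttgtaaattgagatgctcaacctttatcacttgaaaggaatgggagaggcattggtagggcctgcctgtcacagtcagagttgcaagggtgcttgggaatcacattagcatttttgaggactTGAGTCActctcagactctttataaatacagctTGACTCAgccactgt
SCEL: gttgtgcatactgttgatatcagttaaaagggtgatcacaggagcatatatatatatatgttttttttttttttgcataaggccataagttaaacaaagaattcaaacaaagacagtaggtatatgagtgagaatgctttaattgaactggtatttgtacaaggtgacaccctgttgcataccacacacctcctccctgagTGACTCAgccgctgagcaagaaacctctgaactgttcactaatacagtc
SPRR3: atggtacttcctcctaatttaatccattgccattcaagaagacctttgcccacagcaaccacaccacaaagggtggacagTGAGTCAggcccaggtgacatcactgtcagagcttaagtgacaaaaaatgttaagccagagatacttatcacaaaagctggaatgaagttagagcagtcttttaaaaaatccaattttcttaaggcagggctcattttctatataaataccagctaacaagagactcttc
SPRR1B: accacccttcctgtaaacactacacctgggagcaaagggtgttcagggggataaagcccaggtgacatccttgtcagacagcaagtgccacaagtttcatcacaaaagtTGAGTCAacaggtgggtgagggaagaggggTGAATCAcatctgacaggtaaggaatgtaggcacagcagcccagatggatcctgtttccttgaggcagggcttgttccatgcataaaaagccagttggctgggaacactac
CPA4 and SPRR1B held 2 matches each, and SCEL and SPRR3 held 1 each.

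Depth differed between the libraries and is known only through the background that the peak values imply. Each list held 298508 to 299374 peaks. The genome-wide background, in units of read pileup, was 2.11 in hESC replicate 1 against 4.62 in replicate 2. It was 4.58 against 7.94 for the hDE pair, 2.22 against 3.85 for the hAFE pair, and 5.66 for the hPFE library. Peak heights are given below as the summit over that background of the same library, on a linear scale, and "no peak" means that the list of that library held none. The weakest listed summit was 2.47 to 3.78 times background, so closed stands for no peak at or above that level rather than for no signal. The height of the weakest strong peak also differed. It was 4.95 times background in hPFE, 6.16 and 9.09 in the hESC libraries, and 5.68 and 12.2 in the hDE libraries. In the hAFE libraries it was 11.3 and 7.27. On this scale the limit for open was thus lowest in hPFE. Among regions open at every stage the median summit was lowest in hPFE (23.5 times background) and highest in hAFE replicate 1 (73.4 times). The part that such differences of signal and limit play in the counts was not tested. Of the markers of the stages, POU5F1 had a peak within 1 kb of an end in 6 libraries and none in hPFE, PAX9, a factor of the pharyngeal pouches, had a start peak only in hPFE (8.83 times background), and HOXA3, another pouch gene, had none in any library. Among markers of other cells, the starts of ALB and AFP (liver), COL3A1 (mesenchyme) and PTPRC (blood) had no peak in any library. Peaks in all 7 libraries were found at 2 of 5 mesenchyme markers (TWIST1, COL1A1), 1 of 4 blood and endothelium markers (TAL1) and 1 of 3 neural markers (SOX1).

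Closing and opening regions were about equally frequent. Read in the order hESC, hDE, hAFE, hPFE and leaving out stages between the 2 states, 742 regions (43.8%) closed, 712 (42.0%) opened, 221 (13%) were open between closed stages, 13 were closed between open stages and 8 changed more often than that. The commonest single course, seen at 230 regions, was open in hESC, between in hDE and hAFE, and closed in hPFE. The next, at 223 regions, was open in hPFE and closed at the 3 other stages. Open at 1 stage and closed at the 3 others were also 64 regions in hDE, 41 in hESC and 36 in hAFE. The same courses over all merged regions are not given here. From hESC to hPFE, 14% of all merged regions opened and 7.64% closed.

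From hESC to hDE, 179 gene-end regions opened, against 5.94% of all merged regions that did, and 95 closed, against 1.57%. From hDE to hAFE, 117 opened, against 2.73%, and 101 closed, against 3.7%. From hAFE to hPFE, 307 opened, against 9.27%, and 295 closed, against 5.54%. From hESC to hPFE, 521 opened, against 14% of all merged regions, and 478 closed, against 7.64%. As shares of the 17707 gene-end regions the opened counts were 1.01%, 0.661%, 1.73% and 2.94% and the closed counts 0.537%, 0.570%, 1.67% and 2.70% in the same order. All of these shares are under the share over all merged regions. Which of the opened and closed counts was larger depended on the libraries and limits. From hESC to hDE 201 opened and 266 closed without hESC replicate 1, and 278 and 309 without hESC replicate 2. From hDE to hAFE the counts were 180 and 207 without hDE replicate 1. From hAFE to hPFE they were 427 and 459 without hAFE replicate 1 and 398 and 622 without hAFE replicate 2. From hESC to hPFE they were 621 and 983 without hESC replicate 1 and 719 and 845 without hESC replicate 2.

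**Figure D1:**
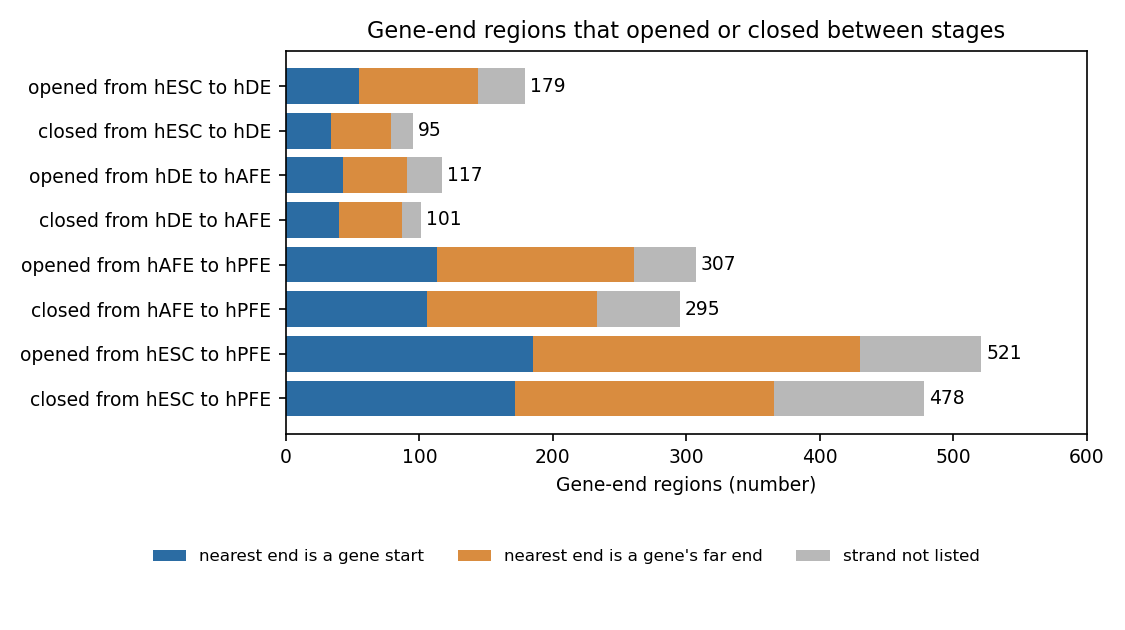
Number of gene-end regions that opened or closed in each comparison of stages (horizontal axis), split by whether the nearest gene end is a start, a far end or of unlisted strand. The bars run from 95 regions closed from hESC to hDE to 521 opened from hESC to hPFE, and far ends outnumber starts in each of the 8 bars.

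The hPFE stage weighs most in these counts, and it rests on 1 library. It was the only open stage of 577 regions and the only closed stage of 572. Over all merged regions, too, the step from hAFE to hPFE had larger shares opened (9.27%) and closed (5.54%) than the earlier steps. Without hPFE, 547 of the merged regions met the rule over the other 3 stages, 286 opening and 177 closing. A stage with 1 library can be between only through a weak peak, and 11.0% of the gene-end regions were between in hPFE, against 20.4% in hESC, 27.5% in hDE and 20.5% in hAFE. Comparing single libraries with single libraries removes that inequality. Of gene-end regions strong in 1 library, 38 to 247 (median 71.5 over 6 ordered pairs) had no peak in the other library of the same stage, and 250 to 975 (median 441.5 over 36 ordered pairs) had none in a library of another stage. The 2 ranges do not overlap but nearly meet, at 247 and 250. Pairs with hPFE gave 395 to 428 regions strong in hPFE and missing from an hAFE library, and 827 and 975 strong in the hESC libraries and missing from hPFE. The difference of hPFE from other stages, its single library, lower summits and lower height limit for a strong peak cannot be told apart here.

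**Figure D2:**
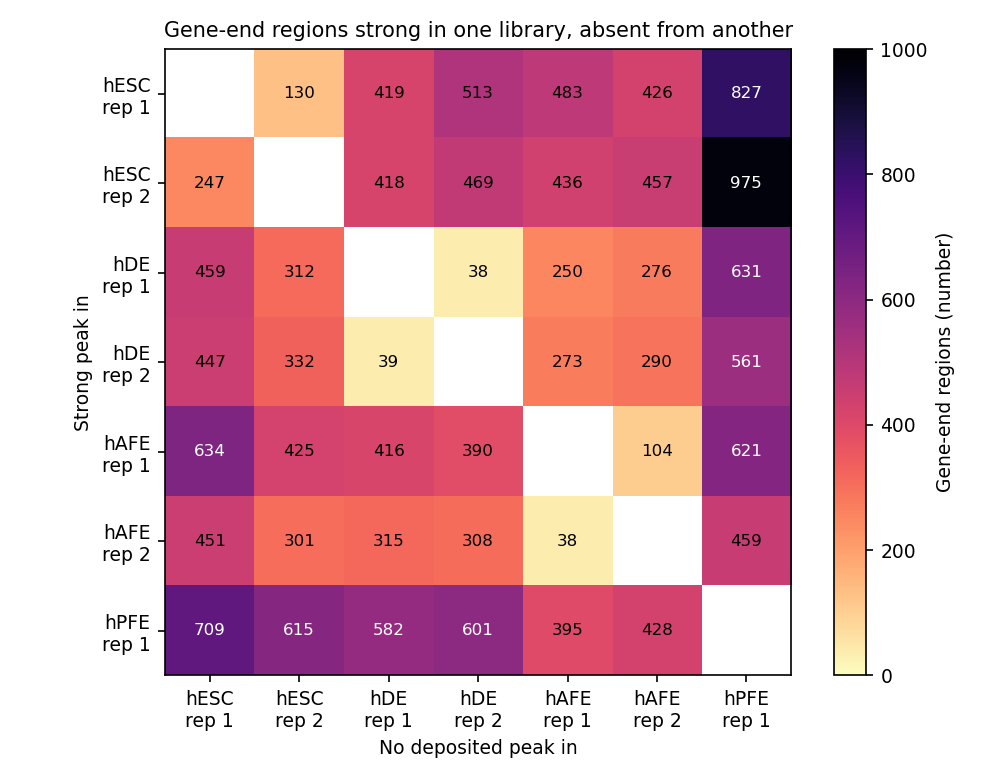
Number of gene-end regions with a strong peak in the library of the row and no peak in the library of the column, with the diagonal left blank. The cells within a stage hold 38 to 247 regions and all cells between stages hold 250 to 975, the highest for hESC replicate 2 against hPFE.

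The stages that a comparison did not use are described next, each beside the same share over all gene-end regions that were open at the comparison's open stage. Of the 179 regions opened from hESC to hDE, 21 were open in hAFE (11.7%, against 94.9% of all gene-end regions open in hDE), 83 were between and 75 closed. In hPFE 24 of them were open (13.4%, against 93.1%) and 131 closed. Of the 95 regions closed from hESC to hDE, 9 were open in hAFE (9.47%, against 91.6% of all gene-end regions open in hESC) and 7 in hPFE (7.37%, against 90.1%). Of the 117 opened from hDE to hAFE, 58 were closed in hESC (49.6%, against 1.17% of all open in hAFE) and 57 in hPFE (48.7%, against 2.26%), where 32 were open. Of the 101 closed from hDE to hAFE, 75 were also closed in hESC (74.3%, against 1.54% of all open in hDE) and 82 in hPFE (81.2%, against 3.10%). Of the 307 opened from hAFE to hPFE, 260 were closed in hESC (84.7%, against 3.84% of all open in hPFE) and 246 in hDE (80.1%, against 3.44%). The regions compared here already had a closed stage by the rule, which most gene-end regions did not. Only 13 regions were closed in both hESC and hDE and open in both hAFE and hPFE, and 4 were the reverse, NANOG among them.

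Genes of the pluripotency network were mostly on the closing side. Of 50 gene-end regions of this list, 11 had opened or closed (22%, against 9.58% of all gene-end regions), 9 of them closing and 2 opening. Without hPFE, 5 of the 11 remained, 4 closing and 1 opening. NANOG, a homeodomain factor that maintains pluripotency, had a region over its start (chr12:7789183-7789516) with a summit of 9.48 and 25.8 times background in the hESC libraries and 6.55 and 13.9 in the hDE libraries. It had no peak in hAFE or hPFE, so that the first 4 libraries stand apart from the last 3, although hAFE replicate 2 had a peak of 3.12 times background elsewhere within 1 kb of the start. DPPA2, a chromatin protein of early embryos and stem cells, had a start region (chr3:109316267-109316778) at 7.58 and 21.4 times background in hESC and no peak in the 5 other libraries. ZFP42, the gene of the zinc finger protein REX1, fell away in steps over its start (chr4:187995296-187996071), from 34.6 and 39.2 times background in hESC to 9.17 and 27.3 in hDE and 6.76 in hAFE replicate 1, with no peak in the 2 remaining libraries. ZSCAN10, a zinc finger factor of stem cells, went from 15.2 and 25.8 in hESC to 6.11 and 8.94 in hDE, with a peak of 5.71 in 1 of the hAFE libraries and none in hPFE.

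Other pluripotency genes had their changing region off the start or on an end of unlisted side. POU5F1, which encodes OCT4, had it 997 bp outside an end (chr6:31171679-31172785). Its summit was 26.5 and 48.9 times background in hESC, 3.93 in hDE replicate 1, 13.1 in hAFE replicate 1, and without a peak in the other 3 libraries. That region no longer met the rule without hESC replicate 1 or without hPFE. SFRP2, a secreted WNT antagonist, had a region 829 bp outside its start at 35.1 and 44.4 times background in hESC and at no other stage. GDF3, a ligand of the TGF-beta family, had a start region at 5.21 and 15.2 in hESC and 7.64 and 18.5 in hDE, none in hAFE and 3.53 in hPFE. USP44, a deubiquitinase, was at 13.3 and 30.5 in hESC and had no peak in hPFE, and PODXL, a surface sialomucin, was highest in hDE (36.0 and 41.3) and without a peak only in hPFE.

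OTX2, a homeodomain factor of both the primed stem cell and the anterior embryo, had 2 changing regions, both counted as opening, with peaks in different libraries. The region over the start (chr14:56810405-56810728) had no peak in hESC, 8.73 and 14.1 times background in hDE, the highest values in hAFE (28.4 and 15.1), and 6.54 in hPFE. The region 875 bp inside the gene (chr14:56808363-56809604) had 7.58 and 12.3 in hESC, no peak in hDE, 7.53 in hAFE replicate 2 and 8.48 in hPFE. The first was thus open only in hAFE and the second only in hPFE, there by a peak with the number 76320. By peak number, the second counted as open at 8.48 in hPFE but as between at 7.58 and 12.3 in hESC.

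The gene lists overlap, so that OTX2, FOXA1, GATA3 and FGF8, among others, count in more than 1. Of 46 gene-end regions of the definitive endoderm list, 8 had opened or closed (17.4%, against 9.58% of all gene-end regions). Of these, 4 were opening, 2 closing and 2 open between closed stages. CER1, a secreted antagonist of Nodal, BMP and WNT made by anterior endoderm, had 2 of them. The region at its far end (chr9:14715002-14717332) had summits of 24.9 and 35.5 times background in hDE and no peak at any other stage. The region 563 bp outside its start (chr9:14723296-14723768) had 39.1 and 51.5 in hDE, none in hESC, 9.87 in hAFE replicate 2 and 4.06 in hPFE. All 7 libraries nevertheless had a peak within 1 kb of an end of CER1, of 11.8 and 29.0 in hESC, 18.9 and 21.0 in hAFE and 4.77 in hPFE. FGF17, a fibroblast growth factor, had a region at 22.5 and 38.2 in hDE alone. PRDM1, a repressor with roles in endoderm and germ cells, had a region 583 bp inside its start at 17 and 31.9 in hDE. It was at 37.8 and 25.2 in hAFE, at 12.3 in hESC replicate 2 and without a peak in hPFE. FOXA1, a pioneer factor of endoderm, had a region 810 bp inside its start, with 15.9 and 22.3 in hDE, 27.0 in hAFE replicate 1 and 12.5 in hPFE, and no peak in hESC or in hAFE replicate 2. The highest peak within 1 kb of the FOXA1 start was present in all 7 libraries, from 14.5 to 65.3 times background. SOX18, a SOXF factor, had peaks of 14.4, 13.1 and 11.7 in 1 hDE, 1 hAFE and the hPFE library, so that its replicates differed at 2 stages. Without hPFE, 4 of the 8 regions remained.

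For the anterior foregut, 7 of 45 gene-end regions had opened or closed (15.6%, against 9.58% of all gene-end regions), 5 opening and 2 closing. For the pharyngeal endoderm the count was 6 of 53, 1 opening, 3 closing and 2 open between closed stages. That share, 11.3%, was near the 9.58% of all gene-end regions. SHH, the hedgehog ligand of foregut epithelium, had a region over its start (chr7:155812082-155812604) with no peak in hESC or in hDE replicate 1, 25.2 times background in hDE replicate 2, 13.5 and 12.7 in hAFE and 13.4 in hPFE. NKX2-1, the thyroid and lung specifier, ran the other way at its start (chr14:36519469-36520340), with 11.4 and 16 in hESC, 13.8 and 26.1 in hDE, no peak in hAFE and 5.48 in hPFE. WNT7B, a WNT ligand of epithelia, had no peak in hESC or hDE and 11.7 and 8.05 in hAFE and 11.3 in hPFE. GATA3, a factor of the parathyroid and inner ear, had a region 687 bp beyond its far end at 23.4 and 9.87 in hAFE, none in hDE, 5.84 in hESC replicate 2 and 2.47 in hPFE.

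Other regions of the pharyngeal list were open at early stages and closed in hPFE. HOXA2, which patterns the second pharyngeal arch, had a region 149 bp outside its start (chr7:27102832-27103299) at 12.4 and 38 times background in hDE alone. Among all HOX genes, 4 of 29 gene-end regions had opened or closed (13.8%, against 9.58% of all gene-end regions). HOXD10 and HOXC10 were among them, open in hESC and closed in hPFE. FGF8, a signal of the pharyngeal epithelium, had 16.1 to 32.4 in the 6 libraries of the first 3 stages and no peak in hPFE. Without hPFE, 2 of the 7 foregut and 4 of the 6 pharyngeal regions remained.

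**Figure D3:**
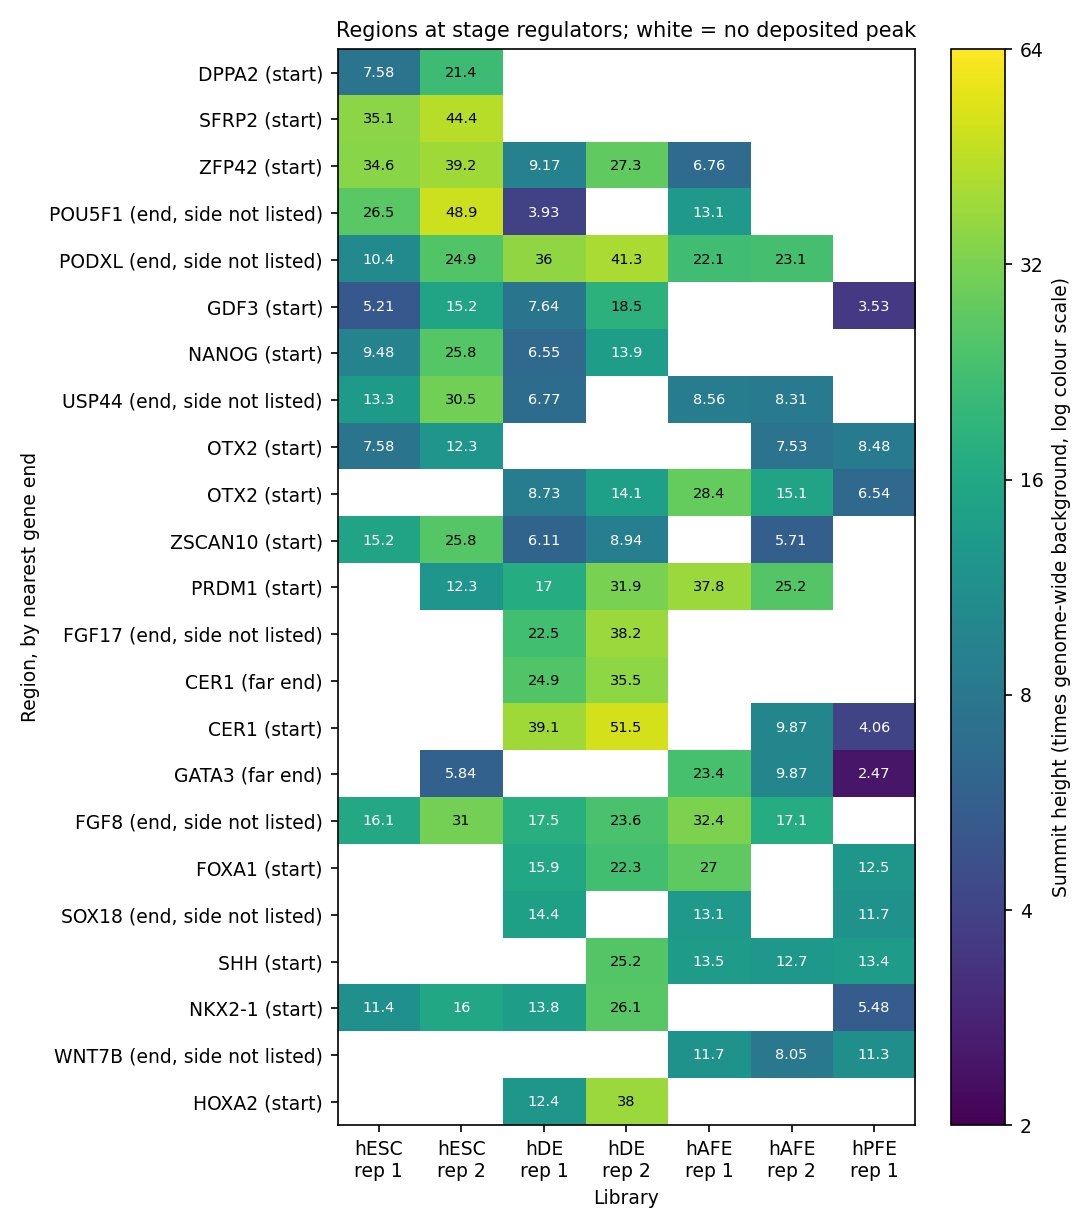
Summit height (times genome-wide background, log colour scale, value printed in each cell) of gene-end regions from 4 gene lists (rows) in the 7 libraries (columns), white where there is no peak. Rows from DPPA2 to ZSCAN10 belong to the pluripotency list and include the 2 OTX2 regions, which have peaks in different libraries, and CER1 shows its 2 regions at 24.9 to 51.5 times background in hDE.

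Signalling genes are ordered here by role, and the shares of the 3 signalling lists that had changed, 11.7% to 11.8%, were near the 9.58% of all gene-end regions. In the WNT list 8 of 68 gene-end regions had opened or closed (11.8%), 5 opening, and the ligands among them were WNT7B, WNT9A, WNT9B and WNT10B. WNT10B was on the closing side, with 15.2 and 19.3 times background in hESC, 3.93 and 4.79 in hDE and no peak afterwards. WNT9B opened at its start, from no peak in hESC through 4.37 and 6.55 in hDE and 12.2 and 5.97 in hAFE to 9.36 in hPFE. FZD5, a receptor, had 13.3 and 20.7 in hDE alone at its far end. SP5, a target gene of WNT signalling, had a region 535 bp outside its start with no peak in hESC and peaks in all later libraries, at 17 and 15.5 in hDE, up to 24.3 in hAFE (15.3 in replicate 2), and at 9.89 in hPFE. In the list of Nodal, BMP and TGF-beta genes 7 of 60 regions had opened or closed (11.7%). Follistatin (FST), an activin antagonist, had 2 regions by its far end, at 10.6 and 6.89 times background in hPFE alone, and TGFB3, a ligand, had 12.2 in hAFE replicate 2 and 12.4 in hPFE. In the list of FGF, retinoic acid, hedgehog and Notch genes the count was 10 of 85 (11.8%). JAG1 and JAG2, the Notch ligands, differed in course. At its far end JAG1 had 17.1 and 38.7 in hESC, then 26.2 and 56.9 in hDE, stood at 8.11 and 8.57 in hAFE and had no peak in hPFE. JAG2 had no peak in hAFE and 9.17 to 12.8 in the other 5 libraries, over its start. CYP26C1, which degrades retinoic acid, stood at 29.3 and 16.1 in hAFE, at 5.24 to 9.31 in hESC and hDE, and without a peak in hPFE. FGF19 had 35.1 and 14.0 in hAFE, 7.11 in hESC replicate 1, 3.36 in hPFE and no peak in hDE.

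Lists of other cell types and of general functions had changing regions at shares below and above the 9.58% of all gene-end regions. In the neural ectoderm list 10 of 45 gene-end regions had opened or closed (22.2%), including both OTX2 regions, and 5 remained without hPFE. PAX6, an eye and neural factor, had 14.7 and 30.7 times background in hESC, 10.3 and 15.4 in hDE, none in hAFE and 6.01 in hPFE over its start. SIX3, a forebrain factor, ran the other way, with no peak in hESC and its highest values in hAFE (53.6 and 35.8), while hDE stood at 14.4 and 21.2 and hPFE at 8.30. The counts were 2 of 29 for mesenchyme and fibroblast genes (6.90%), 2 of 26 for immune genes (7.69%), 2 of 19 for liver, pancreas and gut (10.5%), 4 of 35 for epithelial junctions (11.4%) and 5 of 41 for AP-1 and stress genes (12.2%). They were 4 of 18 for blood and endothelium and 2 of 9 for germline genes (22.2% each), of which 0 and 1 remained without hPFE. OCLN and MARVELD2, components of tight junctions, each had a region at the far end with a peak in hPFE alone (9.89 and 5.30), and PRRX1, a mesenchymal homeodomain factor, had 13.8 to 22.7 in hESC and hDE and no peak later. Of 33 gene-end regions of housekeeping genes, 2 were among the changing ones, at the far end of TBP (20.5 and 36.6 in hDE alone) and 625 bp inside PGK1 (7.77 in hPFE alone), while 27 were open at every stage (81.8%). The part that other cell types play in these counts was not tested.

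The strongest changing regions, ranked by peak number at the open stage, lay mostly at other genes. PLD5, a phospholipase D family gene, had the strongest region open in hPFE alone, 25.6 times background over its start. PXYLP1 (20.3, over its far end), CPA4 (22.6) and SOCS2 (17.8) followed. HDC, which makes histamine, had a region beyond its far end at 72.1 and 38.4 in hAFE and no peak elsewhere, and HAPLN3, a link protein of the extracellular matrix, had 68.0 and 62.6 in hAFE outside its start. RGS9BP had 117 and 60.0 in hAFE, 21.4 and 43.7 in hDE, 12.3 in hESC replicate 2 and no peak in hPFE. For comparison, the hAFE medians over regions open at every stage were 73.4 and 49.9. TP53TG5 had 3 changing regions, more than any other gene, and its start region was at 31.2 and 44.8 in hDE alone. ARL6IP6 was open, closed and open again over its far end, with 40.8 and 67.9 in hDE, none in hESC or hAFE and 5.65 in hPFE. PROM2, a prominin of epithelial membranes, was missing only in hDE, with 21.8 and 30.3 in hESC, 78.8 and 41.3 in hAFE and 9.36 in hPFE. CCDC81 carried the strongest region open at the first 3 stages and closed in hPFE, and its summits were 44.5 and 60.2 in hESC, lower in hDE (7.21 and 13.2), and 14.9 and 18.2 in hAFE. The region by SMN2, open in hESC (19.0 and 48.9), is uncertain, since the near-identical copy SMN1 could share its reads.

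The selected regions lay at far ends of genes more often than other gene-end regions. The strand of the nearest gene was listed for 1356 of them, of which 632 had a start nearest and 724 a far end. The share at a start was 46.6% (exact 95% interval 43.9% to 49.3%), against 95.6% (95.2% to 96.0%) of the regions open at every stage and 67.7% (66.3% to 69.1%) of the remaining gene-end regions. These intervals do not overlap, and they cover counting error only. In each of the 8 comparisons of stages the share at a start was between 38.2% and 47.3%. Only 508 of the 1696 regions (30.0%) spanned the end point itself, against 92.2% of those open at every stage, while 559 lay inside the gene and 629 outside. The median distance to the end was 257.5 bp, and the median width was 531 bp, against 1260 bp for regions open at every stage. Of the 724 at a far end, 10 (1.38%) overlapped a listed start window of any gene, against 35.4% of those open at every stage. A total of 131 regions lay within 1 kb of ends of more than 1 gene.

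The 1696 regions belonged to 1624 genes, and 71 genes had more than 1. Of 707 genes with a changing region at the far end, 365 (51.6%) had a region open at every stage at their start, as did 52.0% of all 15812 genes with a listed strand. Of 623 genes with one at the start, 142 (22.8%) had a region open at every stage at either end, against 53.4% of all genes with a listed strand. Genes with a changing far end were thus near the general share and those with a changing start below it. The second result is partly set by the rule, since a changing region cannot itself be open at every stage. A gene with a changing start could count only through another region at that start or at its far end. Regions open at every stage were rare at far ends, with 381 there and 8315 at starts.

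The starts that opened or closed were poor in CpG. For each gene RefSeq lists windows of 300 bases, 250 before and 50 after a start, and a window was called CpG-rich when the observed over expected CpG was at least 0.75 with at least 55% GC, and CpG-poor when it was under 0.48. Of 280 changing start regions that overlapped such a window, 26 were CpG-rich (9.29%, exact 95% interval 6.16% to 13.3%) and 209 CpG-poor (74.6%). Of 7848 start regions open at every stage, 70.5% (69.4% to 71.5%) were CpG-rich and 3.8% CpG-poor, and of all 22132 listed windows 45.3% were rich and 31.7% poor. The median observed over expected CpG was 0.241 at the changing starts and 0.861 at those open at every stage. None of the 16 starts opened from hESC to hDE and none of the 23 opened from hDE to hAFE was CpG-rich, which allows shares of up to 20.6% and 14.8%. The starts closed from hESC to hPFE had a CpG-rich share of 9.78% (9 of 92, 4.57% to 17.8%) and those opened 6.78% (4 of 59, 1.88% to 16.5%), with overlapping intervals.

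**Figure D4:**
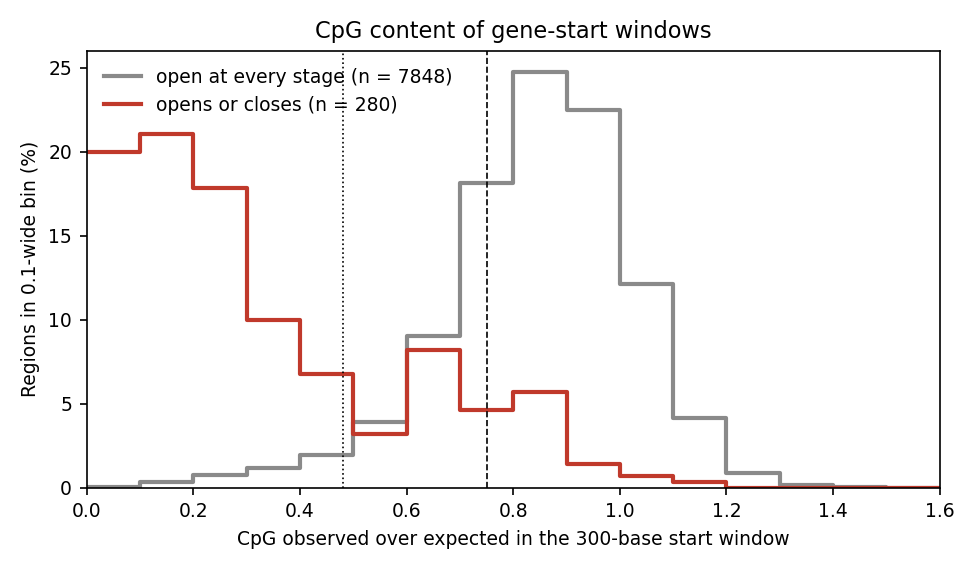
Distribution of observed over expected CpG in the 300-base start window (horizontal axis, bins of 0.1) for the 280 starts that open or close and the 7848 open at every stage, as percent of each set. The dotted line marks 0.48 and the dashed line 0.75, and the medians are 0.241 and 0.861.

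Of the 26 CpG-rich starts, 14 closed and 12 opened, and 8 are described here, chosen after their values were seen. HOXD10, a posterior HOX gene, had 15.6 and 22.1 times background in hESC, 5.86 to 13.4 in hDE and hAFE and no peak in hPFE. PAX6, CYP26C1 and JAG2, described above, were also among them. SPO11 and TDRD5, of meiosis and germ cells, were open in hESC and closed in hPFE, and PSMA8, a proteasome subunit of the testis, had 6.16 and 14.3 in hESC and no peak at any other stage. MSH3, a mismatch repair gene, had 42.1 and 53.0 in hDE, 100.5 and 74.5 in hAFE, 31.0 in hESC replicate 2 and no peak in hESC replicate 1 or in hPFE. The other 18 were at TNFRSF25, NOTCH2NLC, B3GNT5, C5orf58, ELFN1, FLNC, VAX1, B4GALNT4, EPS8L2, DNAJC15, RPL10L, TNFAIP2, SIN3A, BNC1, UBTF, SHC2, ICAM5 and VSTM2B.

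A set of 13 short motifs was searched on both strands of the 280 windows, and their shares are set beside starts open at every stage and beside all CpG-poor windows. The SP and KLF motif GGGCGG was in 30.4% of the windows, against 76.0% at starts open at every stage, and 16.1% of all CpG-poor windows. The TATA motif TATAAA was in 17.5%, against 4.51% at starts open at every stage and 19.1% of all CpG-poor windows. The SOX motif ACAAAG was in 24.6%, against 9.48% and 21.8%. The GATA motif AGATAA was in 11.4%, against 4.03% and 15.9%, and in 5 of the 16 windows opened from hESC to hDE. These shares describe letters and not binding.

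The AP-1 motif TGANTCA differed between opening and closing starts. It was in 27 of 106 opening windows (25.5%, exact 95% interval 17.5% to 34.9%) and in 10 of 144 closing ones (6.94%, 3.38% to 12.4%), and the intervals do not overlap. It was in 12.1% of all CpG-poor windows, in 6.15% of all windows and in 3.27% of those open at every stage. Within CpG-poor windows the shares were 25 of 80 for opening (31.2%) and 9 of 100 for closing (9.00%). From hESC to hPFE the counts were 19 of 59 opened windows and 5 of 92 closed ones. No match to TGANTCA is also a match to the CRE motif TGACGTCA, which was in 1.43% of the changing windows. Of the 27 opening windows with a match, 26 were open in hPFE, as were 95 of all 106 opening windows. Without hPFE the courses over the other 3 stages gave 6 of 44 opening windows (13.6%, 5.17% to 27.4%) and 4 of 35 closing ones (11.4%, 3.20% to 26.7%), and these intervals overlap. From hESC to hAFE the counts were 4 of 20 and 2 of 21. The difference in AP-1 letters between opening and closing starts was thus not seen without the single hPFE library. These alternatives without hPFE were chosen after seeing the data.

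**Figure D5:**
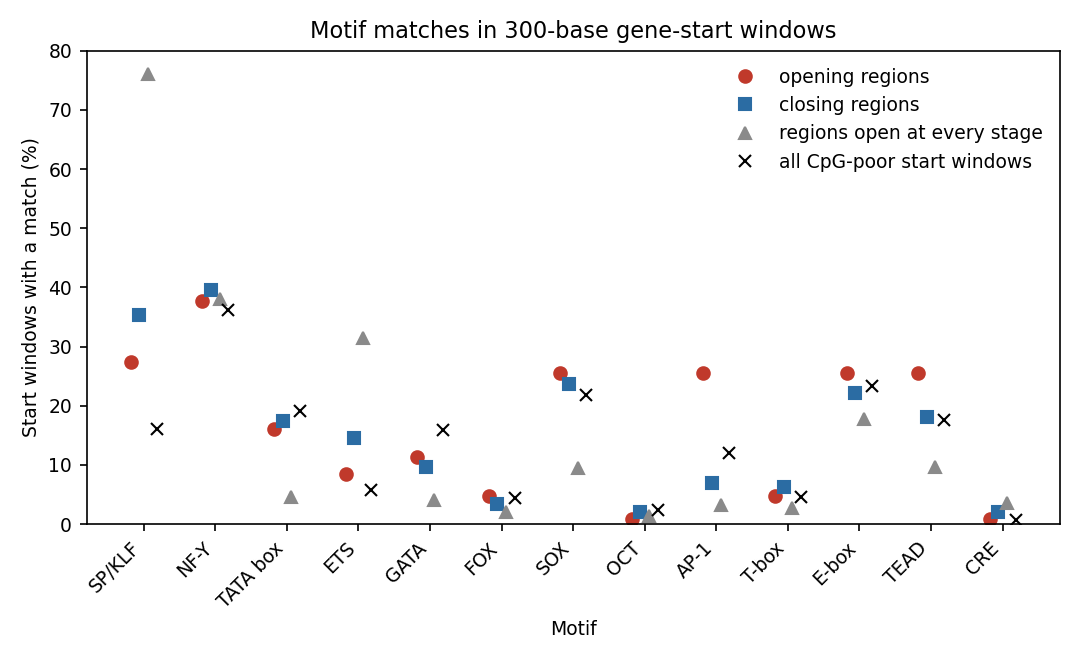
Percent of 300-base start windows with a match to each of 13 motifs (horizontal axis, by name), for opening regions (106 windows), closing regions (144), regions open at every stage (7848) and all CpG-poor windows. AP-1 is at 25.5% in opening and 6.94% in closing windows, and SP/KLF is at 76.0% in windows open at every stage.

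Of the 27 opening starts with AP-1 letters, 8 are described here. CPA4, SCEL and TUBB3 fell under the rule for named genes, and the other 5 were chosen after their values were seen, with a lean to genes of squamous epithelia. SCEL, with its match 49 bases before the start, had no peak in hESC, 3.93 and 13.4 times background in hDE, nearly equal summits in hAFE (9.91 and 9.87), and 28.6 in hPFE. CPA4, with matches 48 and 15 bases before the start, had a peak of 22.6 in hPFE alone. SPRR1B had no peak in hESC or in hDE replicate 2, 3.28 in hDE replicate 1, 6.31 and 9.35 in hAFE and 9.19 in hPFE, and SPRR3 had 6.71 in hPFE alone. MAB21L4 was at 43.6 in hPFE, 17.6 and 9.09 in hAFE and 7.11 in hESC replicate 1, with no peak in the other 3 libraries. TMPRSS11F, a serine protease of squamous epithelia, had 40.5 and 23.6 in hAFE and 21.9 in hPFE, no peak in hDE, and 5.69 and 4.55 in hESC. ALOXE3, a lipoxygenase of the epidermis, had 19.1 in hPFE, 13.5 in hAFE replicate 1 and 12.6 in hESC replicate 2, and no peak in the others. TUBB3, a neuronal tubulin whose region also lies within 1 kb of an end of MC1R, had no peak in hESC. Its summits were 15.1 and 16.6 in hDE, then 34.7 and 23.9 in hAFE, with 25.3 in hPFE. The other 19 were at VTCN1, LBX2, C4orf51, SPINK6, SPINK13, PSORS1C1, VWA7, HLA-DPB1, SRI, SFTPA2, ANKRD22, CALHM3, IZUMO1R, PMCH, KRTAP4-6, LOC124904075, KRTAP19-5, SRPX2 and IKBKG, and their highest summit in hPFE, at KRTAP4-6, was 18 times background. Of these, IKBKG was the only one not open in hPFE, with 46.8 and 16.6 in hAFE and 3.71 in hPFE. SFTPA2, a surfactant protein gene of the lung, had 11.1 and CALHM3 6.89, both in hPFE alone. At 2 of the 10 closing starts with a match, also chosen after their values were seen, PRSS1, the trypsinogen gene, had 32.3 and 76.1 in hDE, 9.46 and 7.53 in hAFE, 3.79 in hESC replicate 1 and no peak in hESC replicate 2 or hPFE. It belongs to a cluster of near-identical trypsinogen genes, so that its reads are uncertain. RUNX2, a factor of bone, had 5.71 to 10.8 in the 6 libraries before hPFE and no peak in hPFE.

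Gene families differed in how often their gene-end regions changed. Of 20 gene-end regions of keratin genes, 10 had opened or closed (50%), 7 of them opening, and of 21 of keratin-associated protein genes, 10 (47.6%), again with 7 opening. Keratins form the intermediate filaments of epithelia, and the associated proteins belong to hair. KRT4, a keratin of squamous mucosa, had 14.0 times background in hAFE replicate 1 and 11.7 in hPFE and no peak elsewhere, and KRT39 had 71.2 and 16.4 in hAFE, 20.7 in hPFE and 14.1 in hESC replicate 2. KRTAP4-9 had 15.0 and KRTAP4-7 9.89, both in hPFE alone. These 4 were chosen after their values were seen. Without hPFE, 3 of the 10 keratin and 2 of the 10 associated protein regions remained. Many members of these families are near-identical neighbours, so that their reads may be shared. For olfactory receptor genes the count was 19 of 43 (44.2%), 9 opening and 6 closing, of which 8 remained without hPFE. At the other end, zinc finger genes named ZNF had 14 of 466 (3.00%) and genes of ribosomal proteins 3 of 99 (3.03%), with 387 and 85 open at every stage. All of these family shares stand beside 9.58% of gene-end regions in general and 38.6% of all merged regions.

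Distal regions of the same genes changed slightly more often than distal regions in general, in the same direction in all 8 comparisons and in the opposite direction in 5 of them. For genes with a gene-end region opened from hESC to hDE, 7.51% of their regions between 1 and 100 kb away (85 of 1132) also opened, against 5.78% of all 96921 such regions. For regions closed from hDE to hAFE the shares were 6.04% and 3.48%, and for those opened from hDE to hAFE 4.17% and 2.90%. From hAFE to hPFE they were 10.6% and 9.09% for opening and 7.04% and 5.73% for closing, and from hESC to hPFE 16.1% and 14.0% and 8.63% and 8.01%. The opposite change was, for instance, at 15.2% against 14.0% for genes closed from hESC to hPFE and at 8.50% against 8.01% for genes opened from hESC to hPFE. The comparisons share libraries. Of the genes with a distal region, 50 of 152 had one that opened with the gene-end region from hESC to hDE, 114 of 263 from hAFE to hPFE and 241 of 457 from hESC to hPFE, and 7 of 76 had one that closed with it from hESC to hDE. Such counts rise with the number of distal regions of a gene. The same share over all genes is not given here, so these counts show no excess.

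The limits of the rule cut through a continuous range of regions. Just inside the limit on the peak number were regions at SLC25A18 (79996), NFIB (79880) and ENO2 (79797), and just outside it CFLAR (80053), PTH1R (80083) and MPZL1 (80085). A further 1482 gene-end regions had a closed stage and missed the limit at each other stage. By distance, GCLC and AFF4 were inside at 999 bp and PLK2 at 998 bp, and WDR43, ABTB1 and CDV3 were outside at 1002 bp.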

How the data were processed

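Open chromatin was measured by ATAC-seq in 7 libraries of H1 cells at 4 stages. Peaks were called by the authors on each library alone, and the submitters' processing notes name hg38 and DiffBind. Which aligner and peak caller they used is not given in the sources used here. Each deposited peak list gives a display score, which was not used, the fold enrichment of the summit as the authors' own ratio, and the −log10 p and q of the summit as deposited. From the deposited fold and −log10 p a pileup and a local background were recovered for each peak, and these matched all −log10 p values within 0.001. The genome-wide background of a library was then the most frequent local background among its peaks at or below the median −log10 p. The match within 0.001 does not check that choice. Summit heights are the recovered pileup over that genome-wide background. Since depth enters the values only through this background, no interval was placed on a single height.

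Regions were formed by an overlap of at least 1 base. Gene ends came from RefSeq (GRCh38.p14), with 19974 protein-coding genes, of which 15812 have a strand listed, and start windows and printed sequences came from RefSeq promoters. Intervals of shares are exact binomial (Clopper-Pearson) and cover counting error only, since regions of 1 library are not independent. The named regions are 91, chosen as the 4 strongest opened and the 4 strongest closed of each comparison, the 4 strongest open at 1 stage alone, every region at genes of the 4 stage lists and the 3 strongest of each other list, with strength read as peak number. Some of the named regions are not reported here. Some regions that opened or closed fell outside the rule for named genes and were chosen after their values were seen. They include those at SP5, FZD5, JAG2, CYP26C1, PAX6, HOXC10 and HOXD10. Counts were made over 16 gene lists, 20 gene families and 13 motifs. The members and lists were chosen with earlier results of these data known. No test was run, since peak values chose the regions. Alternatives were other limits on the peak number, the distance, the overlap, the height and CpG content, and leaving out each library. Counting was tested on simulated peaks. Python 3.11.15, numpy 2.4.6, pandas 2.3.3, scipy 1.17.1 and matplotlib 3.10.9 were used.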

Additional observations from a re-analysis of the deposited data

How the results depend on the processing

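No paired analysis was possible because the results come from no test. In the order opened and closed from hESC to hDE, from hDE to hAFE, from hAFE to hPFE and from hESC to hPFE, the counts were 179, 95, 117, 101, 307, 295, 521 and 478. A limit of 40000 on the peak number gave 68, 19, 28, 29, 85, 67, 162 and 140, and one of 160000 gave 435, 380, 400, 331, 1350, 955, 1626 and 1182. A distance of 2 kb gave 340, 153, 209, 207, 605, 490, 946 and 795. A distance of 500 bp gave 107, 63, 74 and 57 for the first 4, 189 for opened from hAFE to hPFE and 331 for opened from hESC to hPFE. Calling a stage closed below 5 times background gave 175 closed from hESC to hDE, 177 and 157 from hDE to hAFE, 657 closed from hAFE to hPFE and 977 closed from hESC to hPFE. These limits admit more or fewer regions by construction. Over all stages 1696 regions became 532 at 40000, 4632 at 160000, 1108 at 500 bp and 2940 at 2 kb.

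Leaving out 1 library gave 548 (without hPFE) to 2298 regions over all stages. By comparison, in the order above, the ranges were 179 to 302, 95 to 309, 116 to 275, 101 to 207, 307 to 427, 294 to 622, 522 to 719 and 478 to 983. The highest, 983, came without hESC replicate 1, and 845 without hESC replicate 2, because a stage with 1 library meets the rule more easily. The 622 came without hAFE replicate 2, and 459 without replicate 1. The share at a start, 46.6%, ranged from 42.2% to 50.1% and was 50.1% at 5 times background. The CpG-rich share, 9.29%, ranged from 5.88% to 13.4%, and was 18.9% under the looser limits of 0.6 and 50% GC, 13.5% at 5 times background and 4.55% at a number of 40000. The balance of opened over closed regions turned in several settings: without 1 library as given in the report, from hAFE to hPFE (378 and 657) and from hESC to hPFE (587 and 977) at 5 times background, from hAFE to hPFE at 500 bp (189 and 205) and from hDE to hAFE at 40000 (28 and 29). Of the 91 named regions, 44 met the rule without hPFE, 55 at 40000 and 58 at 500 bp. Depth limits what closed means, since weak peaks beyond the end of each list are not seen.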
